A study of Mus musculus with 7 samples.

Results

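Imprinted growth genes were followed through 7 single-cell RNA libraries of mouse liver, cell class by cell class. The set held 10 genes of the 32285 genes listed in every matrix: Igf2, H19, Dlk1, Meg3, Rian, Cdkn1c, Mest, Peg3, Plagl1 and Phlda2. They were chosen as imprinted growth genes by a rule that holds no measured value, although earlier results of these data were known when it was made. All 10 were present in each of the 7 matrices. Each library came from a droplet kit that tags every transcript at its 3′ end with a unique molecular identifier (UMI), so that a UMI stands for 1 captured RNA molecule.

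The mice came from the ABC-Myc model, in which Alb-Cre mice are crossed with CAG-MYC mice on the C57BL/6J background. Cre is driven there by the albumin enhancer and promoter and removes a STOP cassette, after which human MYC is made from the CAG promoter in cells that have used the albumin gene. NEJ634, NEJ687, NEJ709 and NEJ723 are tumors according to the study's text. By elimination NEJ638, NEJ654 and NEJ677 are its healthy livers, and its control animals were littermates lacking one or both transgenes. The labels, in contrast, call every library a hepatoblastoma murine model and give neither age, sex nor genotype. Every library was therefore read on its own. No library was treated as a replicate of another, and no difference between libraries was tested.

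An imprinted gene is read mainly from the copy inherited from one parent. Igf2 encodes a fetal growth factor that is made from the paternal copy, while the neighbouring noncoding RNA H19 is made from the maternal copy. In mouse liver both are strongly used before birth and are shut down in the weeks after it, and both are known to be used again in some liver tumors. Of the 10 genes, 5 are read from the maternal copy (H19, Meg3, Rian, Cdkn1c and Phlda2) and 5 from the paternal copy (Igf2, Dlk1, Mest, Peg3 and Plagl1). These 3′ counts do not tell the parental copies apart.

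Igf2 and H19 also carry microRNAs, which a 3′ count of the host RNA does not measure. They are shown because Igf2 and H19 varied widely among the libraries. Mature sequences are from RefSeq on GRCm38.p6, written 5′ to 3′, with the seed (bases 2 to 8) in capitals. The miR-483 pair lies in an Igf2 intron on the minus strand at chr7:142654932-142654952 (3p) and chr7:142654968-142654989 (5p). The miR-675 pair lies in an H19 exon on the minus strand at chr7:142577078-142577099 (3p) and chr7:142577112-142577133 (5p). No 2 of these 4 share a seed.
miR-483-5p: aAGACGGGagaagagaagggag
miR-483-3p: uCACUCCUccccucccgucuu
miR-675-5p: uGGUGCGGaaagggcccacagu
miR-675-3p: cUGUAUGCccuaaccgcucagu

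In the GENCODE M21 annotation of GRCm38, 5 of the genes are on chromosome 7. H19 (chr7:142575529-142578143) lies 72623 bases from Igf2 (chr7:142650766-142666816), both on the minus strand. Igf2 lies 791523 bases from Cdkn1c (chr7:143458339-143461050), and Cdkn1c lies 40495 bases from Phlda2 (chr7:143501545-143503150). The Cdkn1c and Phlda2 neighbourhood is controlled from the start of the noncoding RNA Kcnq1ot1 and also holds Slc22a18, an imprinted gene of a membrane transporter. Dlk1, Meg3 and Rian form a cluster on chromosome 12, where Dlk1 ends 77665 bases before Meg3 starts. Peg3 is on chromosome 7 as well (chr7:6703892-6730431), Mest is on chromosome 6 and Plagl1 on chromosome 10. Promoter windows, from 250 bases before to 50 bases after a start, are shown for 4 genes of the chromosome 7 stretch that is read cell by cell in NEJ723 further on. H19 and Cdkn1c are named only. Igf2 has 4 windows in the table, with 7, 24, 14 and 2 CG pairs, and the first of these is printed. They are from RefSeq on GRCm38.p6, 5′ to 3′ on the strand of the gene, with CG pairs in capitals. The windows are chr7:142657447-142657746 (minus) for Igf2, chr7:143502475-143502774 (minus) for Phlda2, chr7:143473539-143473838 (plus) for Slc22a18 and chr7:143296498-143296797 (minus) for Kcnq1ot1.
Igf2: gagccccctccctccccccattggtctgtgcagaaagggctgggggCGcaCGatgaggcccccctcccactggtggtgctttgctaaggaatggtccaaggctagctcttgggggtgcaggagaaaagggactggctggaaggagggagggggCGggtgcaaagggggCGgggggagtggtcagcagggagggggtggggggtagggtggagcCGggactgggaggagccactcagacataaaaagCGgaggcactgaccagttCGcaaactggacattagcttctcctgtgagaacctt
Phlda2: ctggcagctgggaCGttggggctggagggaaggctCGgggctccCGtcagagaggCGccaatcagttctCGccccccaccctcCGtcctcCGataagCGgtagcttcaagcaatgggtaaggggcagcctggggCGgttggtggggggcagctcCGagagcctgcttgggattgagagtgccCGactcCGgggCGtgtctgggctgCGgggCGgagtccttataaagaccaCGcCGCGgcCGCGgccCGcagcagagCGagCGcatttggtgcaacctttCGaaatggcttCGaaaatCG
Slc22a18: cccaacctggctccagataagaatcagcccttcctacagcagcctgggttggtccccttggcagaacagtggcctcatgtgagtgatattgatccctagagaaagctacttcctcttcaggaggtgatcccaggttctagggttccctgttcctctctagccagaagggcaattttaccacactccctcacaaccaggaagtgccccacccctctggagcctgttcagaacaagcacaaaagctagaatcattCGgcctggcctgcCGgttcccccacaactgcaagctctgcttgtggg
Kcnq1ot1: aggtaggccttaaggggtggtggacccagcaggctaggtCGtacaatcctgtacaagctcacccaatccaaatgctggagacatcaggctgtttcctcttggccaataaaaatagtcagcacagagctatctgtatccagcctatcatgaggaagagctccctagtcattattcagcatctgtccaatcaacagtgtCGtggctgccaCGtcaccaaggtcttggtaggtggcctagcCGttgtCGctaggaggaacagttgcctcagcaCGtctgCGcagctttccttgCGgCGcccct
These 4 windows held 7, 26, 2 and 9 CG pairs. Over the 14 windows of the 8 genes with an entry, the median was 13 CG pairs, against 7 over all 32851 windows. The MYC recognition letters CACGTG, which read the same on both strands, were in 1 of the 14 windows, that of Plagl1, and in 7.15% of all windows. CCAAT on either strand was in 4 of the 14 and in 37.4% of all. A match of letters is a description and not a bound site.

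Between 40214395 and 132485391 UMIs were counted per library, and 70743 cells were analysed. Barcodes called as cells in several libraries numbered 149 to 363 per library and were left out. A label of NEJ709 carries the name NEJ634. Cell classes were set from marker genes that include none of the imprinted genes. Hepatocyte-lineage-like cells numbered 5311 in NEJ634, 262 in NEJ687, 7 in NEJ709 and 9 in NEJ723, and 331, 512 and 918 in NEJ638, NEJ654 and NEJ677. All 10 hepatocyte markers were above 10 UMIs per 1000000 (CPM) in each library with at least 20 of these cells. Their summed level was 21990 and 26510 CPM in NEJ634 and NEJ687 and between 68210 and 118600 CPM in NEJ638, NEJ654 and NEJ677. Afp, a fetal liver protein, was at 2380.3 and 1530.0 CPM in NEJ634 and NEJ687 and at no more than 9.15 CPM in the others. In NEJ709, 93.0% of cells stayed unnamed because their profile was close to that of the free RNA, and 37.2% stayed unnamed over all libraries.

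Free RNA is a first concern for genes at such levels. Lymphoid cells, which should lack these genes, were therefore read in the same library as a background (T/NK-like and B-like cells together, 101 to 1910 cells a library). A gene was past the fold when its level was at least 2 times the lymphoid level with the exact Poisson 95% intervals apart. Genes with 10 or more UMIs in both pools together were compared. A gene that lymphoid cells lacked could thus be compared only through its UMIs in the class read. Parentheses hold exact 95% intervals, by Poisson for a level and by Clopper-Pearson for a share, and these cover counting error only. Levels are CPM summed over cells. They are not scaled for transcript length, so levels of different genes are not ranked against each other.

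Igf2 and H19 were high in hepatocyte-lineage-like cells of NEJ634 and NEJ687 and at or near 0 in those of NEJ654 and NEJ677. Barcodes called as cells in several libraries are not in these levels, and those of NEJ654 and NEJ677 held both genes, as given in the closing section. Igf2 was at 2659.5 CPM (2638.7 to 2680.5) in NEJ634 and at 2442 CPM (2395 to 2489) in NEJ687. In NEJ638 it was at 0.763 CPM, from 2 UMIs. It had no UMI in NEJ654 or NEJ677, where a count of 0 allows up to 1.63 and 0.870 CPM. The lymphoid cells held 173 and 26.5 CPM of Igf2 in NEJ634 and NEJ687, so hepatocyte-lineage-like cells were 15.4-fold and 92.3-fold above them. The same libraries led for H19, with 5850.2 CPM (5819 to 5881) in NEJ634 and 8818 CPM (8729 to 8908) in NEJ687. The intervals of NEJ634 and NEJ687 were apart for either gene, with Igf2 higher in NEJ634 and H19 higher in NEJ687. H19 was at 192 CPM (176 to 210) in NEJ638, 3.81 CPM in NEJ654 and 0.290 CPM, a single UMI, in NEJ677.

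The maternally read Cdkn1c, which encodes a brake on cell division, was at 217 CPM (211 to 223) in NEJ634 and 250 CPM (235 to 265) in NEJ687. It was at 20.2 CPM (15.1 to 26.4) in NEJ638, 9.79 CPM in NEJ654 and 3.19 CPM in NEJ677. NEJ654 and NEJ677 did not pass the fold over their lymphoid cells, which held 7.32 and 4.78 CPM. Phlda2, a maternally read gene known for restraining placental growth, was at 32.5 CPM (30.2 to 34.9) in NEJ634 and 66.9 CPM (59.4 to 75.2) in NEJ687. It reached at most 1.45 CPM in the other 3 libraries. Before any subtraction of free RNA, Cdkn1c and Phlda2 thus shared the order of H19, with NEJ687 above NEJ634 and both far above the rest. Free RNA made up an estimated 30.65% of the NEJ634 pool and 5.655% of the NEJ687 pool, and held Cdkn1c at 66.8 and 96.7 CPM. Its part in the order of NEJ634 and NEJ687 was not tested.

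The chromosome 12 genes followed the same libraries. Dlk1, a membrane protein of hepatoblasts, was at 24.9 CPM (22.9 to 27.0) in NEJ634 and 41.2 CPM (35.4 to 47.8) in NEJ687, and had no UMI in the other 3. Meg3, a noncoding RNA of the same cluster, was at 32.7 CPM (30.4 to 35.1) and 59.9 CPM (52.7 to 67.7), with 0 to 2 UMIs in each of the other 3. Rian, a noncoding RNA downstream of Meg3, was at 17.2 CPM (15.6 to 18.995) in NEJ634 and 17.4 CPM (13.7 to 21.9) in NEJ687, which overlap. Its lymphoid cells had no UMI, which sets the level at least 5.48-fold and 11.4-fold above them.

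Peg3, which encodes a zinc finger protein read from the paternal copy, had UMIs in every library. It was at 226 CPM (220 to 232) in NEJ634, 278 CPM (262 to 294) in NEJ687, 44.2 CPM (36.6 to 53.1) in NEJ638, 8.16 CPM (4.57 to 13.5) in NEJ654 and 5.51 CPM (3.32 to 8.60) in NEJ677. It was past the fold over lymphoid cells in all 5, by 14.4-fold or more, and the last 2 levels overlap. Against the ambient profile of low-UMI barcodes (without those called as cells in another library), Peg3 passed in NEJ634, NEJ638 and NEJ687 and not in NEJ654 or NEJ677. Mest, a paternally read gene named for the mesoderm, was at 12.2 CPM in NEJ634 and 4.01 CPM in NEJ687, within the fold of lymphoid cells. Plagl1, a zinc finger factor that slows growth, was at no more than 2.67 CPM.

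Of the genes compared in hepatocyte-lineage-like cells, 8 of 10 were past the fold in NEJ634 and 8 of 9 in NEJ687, where 18.2% and 25.6% of all genes were. The counts were 3 of 5 in NEJ638 (H19, Cdkn1c and Peg3), 1 of 3 in NEJ654 and 1 of 3 in NEJ677, against 26.8%, 23.8% and 23.6% of all genes. Genes that were not compared had fewer than 10 UMIs in both pools. Of the 8 past the fold in NEJ634, all but Rian also passed against the ambient profile. In NEJ687 all 8 passed. Of all genes, 8.71% and 17.6% passed against the ambient profile in these libraries.

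**Figure D1:**
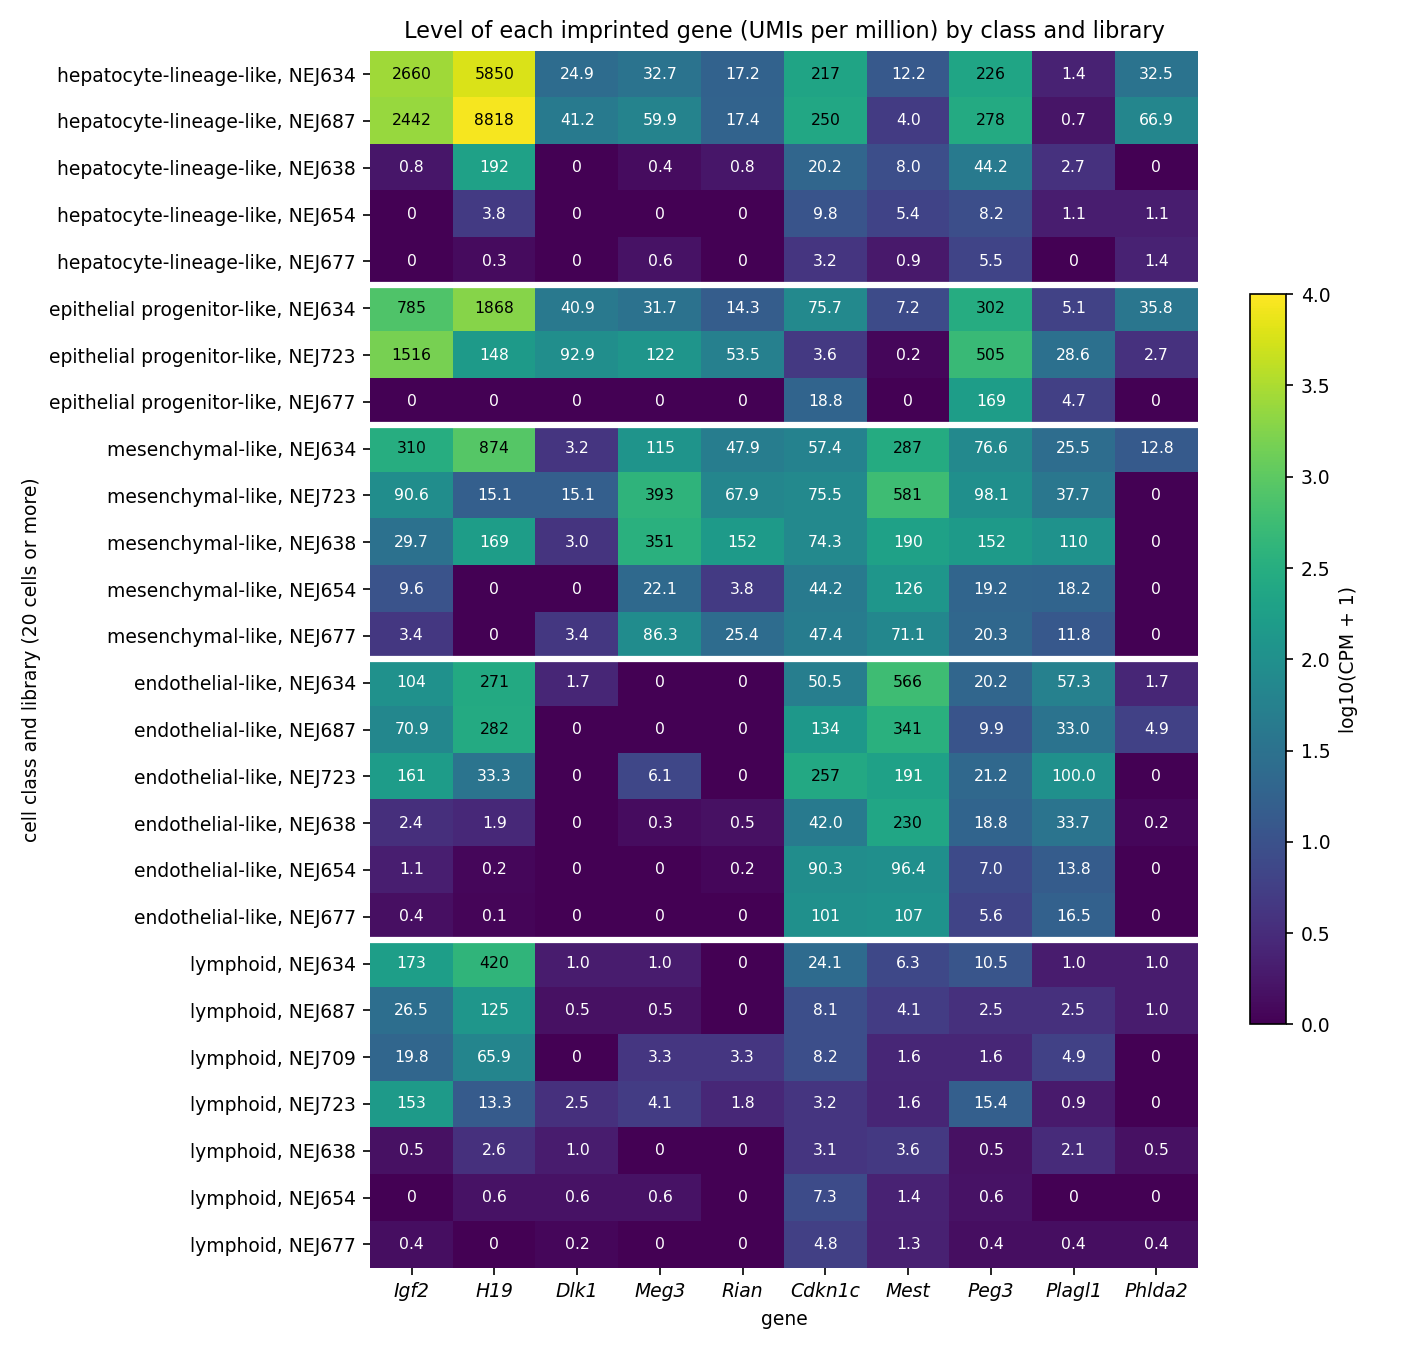
Level of each imprinted gene in CPM (numbers and colour, on a log10 scale of CPM + 1) for every library and class with at least 20 cells. Rows are classes and libraries, and lymphoid cells are the background. Igf2 and H19 are brightest in hepatocyte-lineage-like cells of NEJ634 and NEJ687, while NEJ723 epithelial progenitor-like cells show Igf2 at 1516 CPM with H19 at 148 CPM.

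Epithelial progenitor-like cells, marked by Epcam and keratins, had 8 of the genes past the fold over lymphoid cells in NEJ634 and in NEJ723, with Cdkn1c among them in NEJ634 and Plagl1 in NEJ723. There were 267 of these cells in NEJ634, 243 in NEJ723 and 21 in NEJ677. Igf2 was at 785 CPM (730 to 842) in NEJ634 and 1516 CPM (1492 to 1540) in NEJ723. H19 was at 1868 CPM (1784 to 1956) in NEJ634 and 148 CPM (141 to 156) in NEJ723. Neither gene had a UMI in NEJ677, where a count of 0 allows up to 14.1 CPM. In both NEJ634 and NEJ723, Igf2 and H19 were past the fold over lymphoid cells (8 of 9 genes compared in each library, with 18.0% and 28.5% of all genes) and not over the ambient profile. The pool of NEJ634 had an estimated ambient share of 66.5%, and after subtraction of it Igf2 fell to 59.6 CPM and H19 to 85.2 CPM. That share was estimated at 8.87% in NEJ723, where Igf2 was at 1502 CPM and H19 at 149.6 CPM after subtraction. Both shares were estimated from haemoglobin and granulocyte genes, and whether they hold for H19 was not tested. The order of NEJ634 and NEJ723 for H19 thus turned with the subtraction, and that for Igf2 did not.

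The other genes also differed between these pools. Dlk1 was at 40.9 CPM (29.2 to 55.7) in NEJ634 and 92.9 CPM (87.1 to 98.98) in NEJ723, Meg3 at 31.7 CPM (21.6 to 45.02) and 122 CPM (115 to 129), and Rian at 14.3 CPM (7.83 to 24.0) and 53.5 CPM (49.2 to 58.2). All 3 chromosome 12 genes were thus higher in NEJ723, but with shared barcodes kept Dlk1 was at 101.9 CPM in NEJ634 and 89.4 CPM in NEJ723. Meg3 and Rian of NEJ634 also rose towards the NEJ723 levels under some alternatives, given in the closing section. Cdkn1c and Rian of the NEJ634 pool did not pass against the ambient profile. Cdkn1c went the other way, with 75.7 CPM (59.5 to 95.1) in NEJ634 and 3.60 CPM (2.53 to 4.96) in NEJ723. In NEJ723 that overlapped the lymphoid level of 3.21 CPM (1.76 to 5.39). Phlda2 was at 35.8 CPM (24.9 to 49.8) in NEJ634 and 2.72 CPM (1.81 to 3.93) in NEJ723. Plagl1 was at 28.6 CPM (25.4 to 32.0) in NEJ723 and 5.12 CPM, from 5 UMIs, in NEJ634. Peg3 was at 302 and 505 CPM, and at 169 CPM (118 to 234) in NEJ677, where it was the one gene past the fold of 2 compared (21.2% of all genes). After ambient subtraction its NEJ634 level rose above the reported 505 CPM of NEJ723, so that order is not firm. Cdkn1c and Phlda2 were thus lower in NEJ723 than in NEJ634.

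The share of Igf2 in the UMIs of Igf2 and H19 is given for each library on its own. It was 31.25% (31.05 to 31.46) in hepatocyte-lineage-like and 29.58% (27.83 to 31.38) in epithelial progenitor-like cells of NEJ634. In NEJ687 it was 21.68% (21.32 to 22.06) in hepatocyte-lineage-like cells. In NEJ723 it was 91.11% (90.67 to 91.53) in epithelial progenitor-like cells. Lymphoid cells of the same libraries held 29.15%, 17.51% and 91.99%, and the ambient profiles 29.31%, 21.42% and 93.21%. The lymphoid intervals overlapped those of the epithelial cells of the same library in all 3. Over the named classes of NEJ634 the share ran from 26.15% to 34.86%. In NEJ687 it ran from 8.43% (3.46 to 16.61) in B-like cells to 32.0% (14.95 to 53.5) in plasmacytoid dendritic-like cells, and B-like and macrophage-like cells (16.65%, 14.12 to 19.42) had intervals apart from hepatocyte-lineage-like cells. In NEJ723 the lowest share was 82.81% (71.32 to 91.1), in endothelial-like cells. In NEJ709 the ambient profile held 41.19%, and the 12778 unnamed cells held 30.14% (29.59 to 30.68). In NEJ638 hepatocyte-lineage-like cells, 2 UMIs were of Igf2 and 504 of H19, a share of 0.395% (0.0479 to 1.42).

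Cell by cell, NEJ723 was a mixture. Of its 243 epithelial progenitor-like cells, 202 had no H19 UMI, 26 had 1 to 9 (20 of them exactly 1), and 15 had 10 or more. Those 15 cells held 97.6% of all H19 UMIs in the pool, between 10 and 390 per cell. The highest count below that limit was 5 UMIs, so no cell lay between 6 and 9. In the 15 cells Igf2 made up 7.14% to 28.6% of the UMIs of the pair. The median hepatocyte-lineage-like cell was at 30.8% in NEJ634 and 20.65% in NEJ687. The 202 cells held a median of 53 Igf2 UMIs, and 201 of them held Igf2. Among cells with at least 10 UMIs of the pair, 179 of 214 in NEJ723 lacked H19, against 1 of 4699 hepatocyte-lineage-like cells in NEJ634 and 0 of 199 in NEJ687. Without that minimum, 8 of 5311 and 12 of 262 of the latter lacked it. The background differed too, with H19 in 82.1% of lymphoid cells of NEJ634, 37.2% of NEJ687 and 5.34% of NEJ723. The part of free RNA in this contrast was not tested. The limit of 10 H19 UMIs was chosen after the counts were seen. With each library clustered on its own, no cells of NEJ723 were named epithelial progenitor-like.

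**Figure D2:**
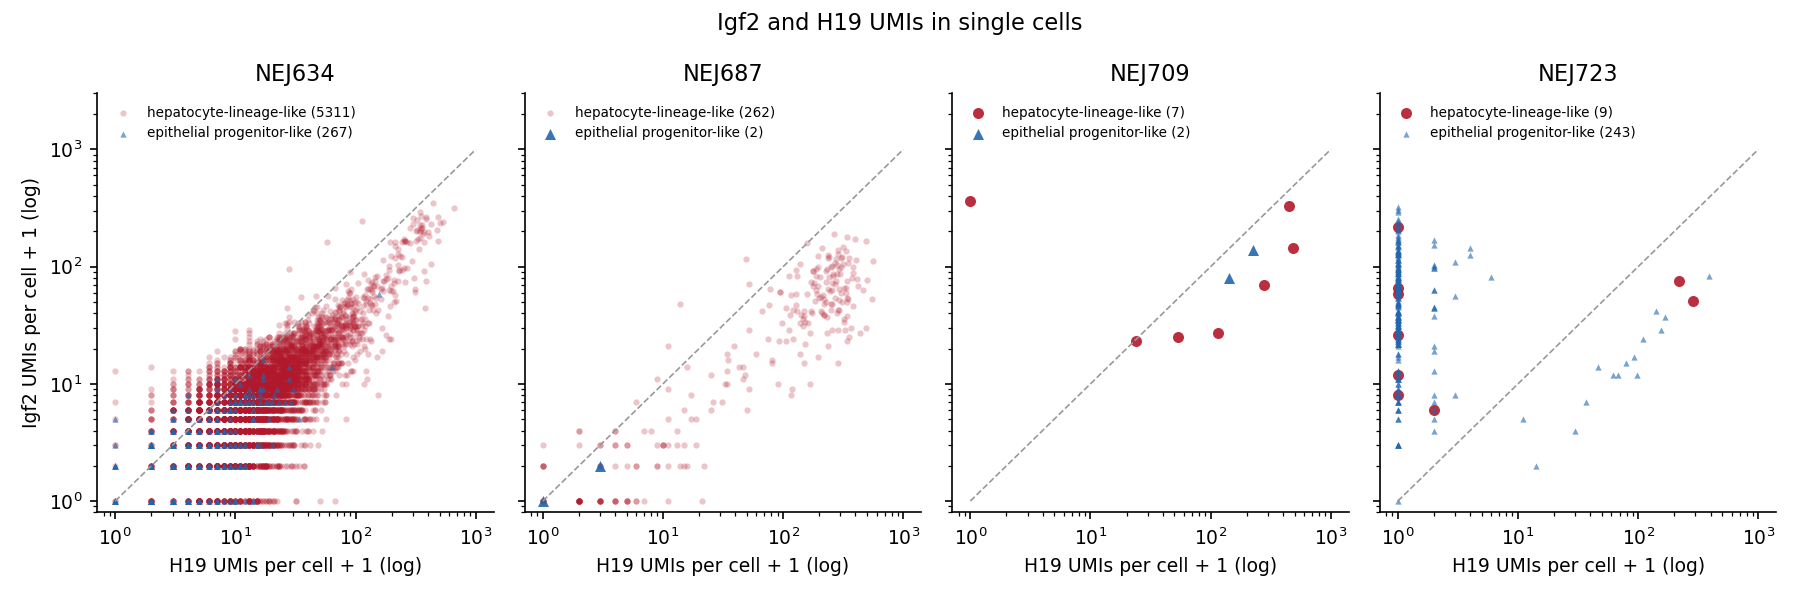
Igf2 UMIs against H19 UMIs in single cells of the libraries the study names as tumors (each + 1, log axes). Each point is a cell, red circles are hepatocyte-lineage-like and blue triangles epithelial progenitor-like cells, and the dashed line marks equal counts. In NEJ723, 202 of 243 epithelial progenitor-like cells stand at 0 H19 on the left edge. UMIs of both genes are in 5149 of 5311 hepatocyte-lineage-like cells of NEJ634 and 218 of 262 of NEJ687. These counts include free RNA, and H19 was in 82.1% of lymphoid cells of NEJ634 and 5.34% of those of NEJ723.

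Some of the other genes of this stretch of chromosome 7 differed with the split. Cdkn1c had 36 UMIs in the 15 cells with H19, a level of 59.4 CPM (41.6 to 82.2), and 1 UMI in the 202 cells without it, a level of 0.114 CPM (0.00290 to 0.638). It was held by 8 of the 15 cells and 1 of the 202. Phlda2 was at 26.4 CPM (15.1 to 42.9) with H19 and 1.14 CPM (0.549 to 2.10) without. Slc22a18, between these genes, had 9 UMIs with H19 (14.8 CPM, 6.79 to 28.2) and 0 without, under the minimum of 10 UMIs, and was not compared. Cdkn1c and Phlda2 were thus low in the cells without H19.

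Igf2 and Kcnq1ot1, both paternally read, ran the other way. Igf2 was at 496 CPM (442 to 556) with H19 and 1568 CPM (1542 to 1595) without, 3.16-fold higher. Kcnq1ot1 was at 87.4 CPM (65.5 to 114) with H19 and 209 CPM (200 to 219) without, 2.39-fold higher. Mrpl23, on the far side of H19, was at 264 CPM (225 to 308) with H19 and 192 CPM (183 to 201) without. Cd81, between Igf2 and Kcnq1ot1, was at 186 CPM (154 to 224) and 125 CPM (117 to 132). Both were lower without H19 with intervals apart, and neither was past the fold. Nap1l4, beyond Phlda2, was at 80.8 CPM (59.8 to 107) and 78.6 CPM (72.8 to 84.7), and Cars at 19.8 and 28.5 CPM with overlapping intervals.

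**Figure D3:**
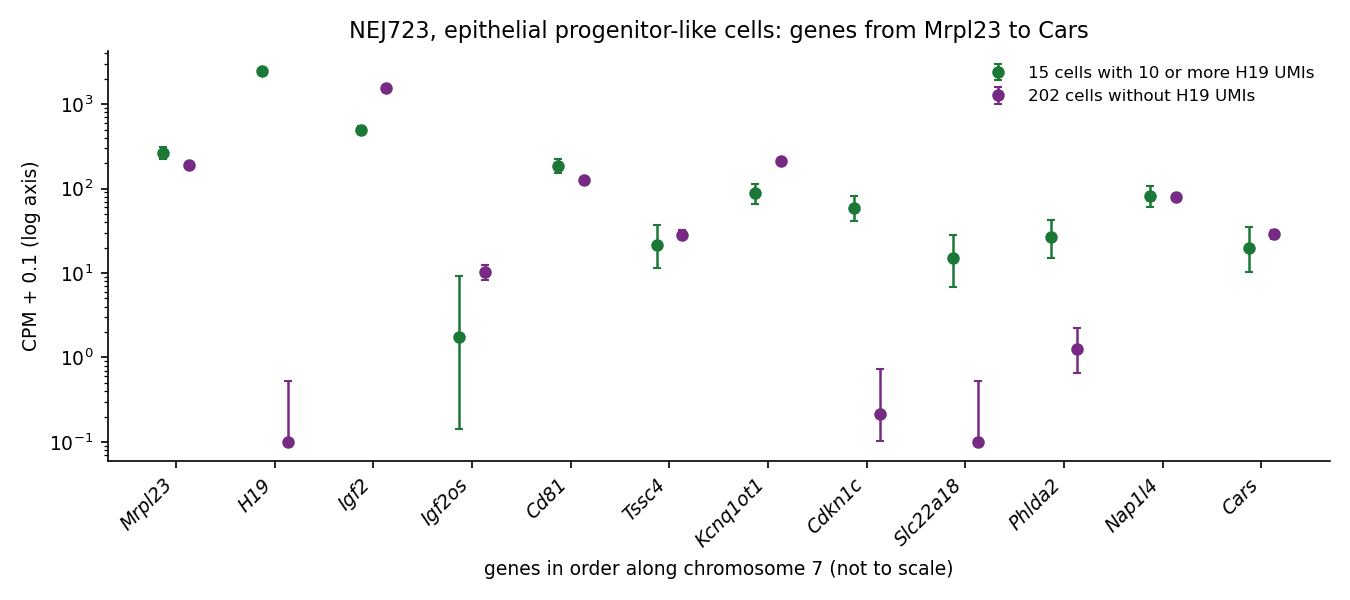
Genes listed from Mrpl23 to Cars in their order along chromosome 7, as CPM + 0.1 on a log axis, in the 15 cells with 10 or more H19 UMIs (green) and the 202 cells without H19 UMIs (purple) of NEJ723. Bars are exact 95% Poisson intervals. H19 itself set the groups. Cdkn1c and Phlda2 are lower without H19, as are Mrpl23 and Cd81 by less, Igf2 and Kcnq1ot1 are higher, and Nap1l4 is level at 80.8 and 78.6 CPM.

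Genes outside this stretch did not all stay level. Dlk1 was at 44.5 CPM (29.4 to 64.8) with H19 and 97.5 CPM (91.1 to 104) without, Meg3 at 46.2 and 126 CPM, Rian at 23.1 and 54.1 CPM and Plagl1 at 13.2 and 30.0 CPM. Of 11885 genes compared, 257 (2.16%) were past the fold as higher with H19, among them H19 itself, which chose the cells, with Cdkn1c and Phlda2. Another 199 (1.67%) were past it as higher without, among them Igf2, Dlk1, Meg3, Rian and Plagl1. Peg3, far away on chromosome 7, was at 510 CPM (454 to 570) and 509 CPM (494 to 524), and Epcam at 205 and 205 CPM. Afp was at 1118 and 2059 CPM, Alb at 1880.2 and 2008 CPM, and the proliferation gene Mki67 at 33.0 and 113 CPM. Afp and Mki67 moved with the split, and their part in it was not tested.

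Both groups of cells were similar in depth, with a median of 33707 UMIs (7023 to 91887) with H19 and 41318 UMIs (908 to 111161) without. Their barcodes were also looked for in the other 6 libraries. The highest total there was at the median 0.695% of the cell's own UMIs with H19 and 0.671% without, and at most 2.06% and 17.3%. Haemoglobin made up 0.107% and 0.531% of the UMIs. In the same library, Cdkn1c had 85 UMIs in 8 of 33 endothelial-like cells, at 257 CPM (206 to 318). It had 10 UMIs in 5 of 22 mesenchymal-like cells, at 75.5 CPM (36.2 to 139). Both levels were lower under some alternatives, given in the closing section. With a limit of 5 or of 20 H19 UMIs, 16 and 13 cells counted as having H19, and their Cdkn1c level was 55.7 and 65.3 CPM.

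Few epithelial cells of NEJ709 were recovered, 7 hepatocyte-lineage-like and 2 epithelial progenitor-like. Of these 9, 8 held H19 (23 to 482 UMIs) and Cdkn1c (1 to 22 UMIs), and 6 of the 8 held Phlda2. The remaining cell held 359 Igf2 and 26 Peg3 UMIs among 48098, and none of H19, Cdkn1c or Phlda2. NEJ723 had 9 hepatocyte-lineage-like cells. In 2 of them, with 55240 and 26642 UMIs in all, H19 had 284 and 217 UMIs, with 6 and 1 UMIs of Cdkn1c. The other 7 had 0 or 1 H19 UMI and no Cdkn1c, with 5 to 218 Igf2 UMIs, but they were shallower, at 914 to 15888 UMIs in all. These are counts of single cells, and no level over so few cells is given.

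In hepatocyte-lineage-like cells of NEJ638, H19 came with almost no Igf2. Of the 331 hepatocyte-lineage-like cells, 71 held H19 and 13 had 10 or more UMIs, up to 88. The 13 cells held 67.1% of the 504 H19 UMIs and none of the 2 Igf2 UMIs. Its mesenchymal-like cells held 57 H19 UMIs at 169 CPM (128 to 220) beside 10 of Igf2, and its endothelial-like cells held 11 beside 14 of Igf2, while its lymphoid cells were at 2.58 CPM of H19. The level was thus in a minority of cells, and Afp was at 9.15 CPM in the pool.

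In mesenchymal-like cells, marked by collagens, Meg3 was at 115 CPM (80.5 to 159) in NEJ634, 393 CPM (293 to 515) in NEJ723, 351 CPM (290 to 420) in NEJ638, 22.1 CPM (14.0 to 33.1) in NEJ654 and 86.3 CPM (64.3 to 113) in NEJ677. The highest pair and the pair of NEJ634 and NEJ677 overlap within themselves, and NEJ654 was lowest. Rian followed, at 47.9, 67.9, 152, 3.84 and 25.4 CPM in the same order of libraries. Mest was at 287 CPM (231 to 353) in NEJ634, 581 CPM (459 to 727) in NEJ723, 190 CPM (147 to 243) in NEJ638, 126 CPM (105 to 149) in NEJ654 and 71.1 CPM (51.2 to 96.1) in NEJ677. It was past the fold in all 5 libraries, as was Meg3. The NEJ634 level of Mest rests on 9 of 88 cells, and it was 44.3 CPM as a mean over cells. The intervals of NEJ634 and NEJ638 overlap, as do those of NEJ638 and NEJ654. These pools hold 22 to 172 cells.

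Cdkn1c in these cells lay between 44.2 CPM (32.3 to 58.9) in NEJ654 and 75.5 CPM in NEJ723, and all 5 intervals overlap. It was past the fold in all but NEJ634, where it was at 57.4 CPM beside 24.1 CPM in lymphoid cells and 66.8 CPM in the ambient profile. The NEJ723 level rests on 10 UMIs in 5 of 22 cells, and as a mean over cells it fell below the reported 44.2 CPM. Peg3 was at 76.6 CPM in NEJ634, 98.1 CPM in NEJ723, 152 CPM in NEJ638, 19.2 CPM in NEJ654 and 20.3 CPM in NEJ677, past the fold in all 5. Peg3 did not pass against the ambient profile in NEJ634 or NEJ723. As a mean over cells its NEJ723 level rose above the reported 152 CPM of NEJ638, as given in the closing section. Plagl1 was highest in NEJ638, at 110.0 CPM (77.5 to 152), and at 11.8 to 37.7 CPM elsewhere. Its interval in NEJ723 (12.3 to 88.1, from 5 UMIs) overlaps that of NEJ638. Igf2 was at 29.7 CPM (14.3 to 54.7) in NEJ638 and 9.60 CPM (4.60 to 17.7) in NEJ654, past the fold in both. In NEJ634 and NEJ723 it was at 310 and 90.6 CPM, where lymphoid cells held 173 and 153 CPM. Dlk1 had at most 2 UMIs in any of these pools, and Phlda2 had 4 UMIs in NEJ634 and none elsewhere.

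Past the fold in mesenchymal-like cells were 5 of 7 genes in NEJ634, 8 of 8 in NEJ638, 6 of 6 in NEJ654, 5 of 5 in NEJ677 and 5 of 8 in NEJ723. Of all genes it was 14.2%, 24.4%, 27.7%, 25.3% and 12.4%. H19 passed in NEJ634 at 874 CPM beside an ambient share of 34.4%, and it was at 0 after subtraction of that share. Hepatocyte markers were at 2588 CPM in that pool and at 966 to 1943 CPM in the others. Their part in the H19 level was not tested.

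In endothelial-like cells Mest and Plagl1 were past the fold in all 6 libraries, Cdkn1c in 5 and Peg3 in 3. Mest was at 566 CPM (507 to 630) in NEJ634, 341 CPM (296 to 391) in NEJ687, 191 CPM (147 to 244) in NEJ723, 230 CPM (218 to 243) in NEJ638, 96.4 CPM (88.2 to 105) in NEJ654 and 107 CPM (99.8 to 116) in NEJ677. NEJ723 and NEJ638 overlap, as do NEJ654 and NEJ677. In every library it was 63.5-fold or more above lymphoid cells. Cdkn1c was highest in NEJ723, at 257 CPM, followed by 134 CPM (106 to 166) in NEJ687, 101 CPM (93.2 to 108) in NEJ677, 90.3 CPM (82.4 to 98.8) in NEJ654, 50.5 CPM (34.1 to 72.2) in NEJ634 and 42.0 CPM (36.9 to 47.7) in NEJ638. It passed the fold in all but NEJ634, where lymphoid cells held 24.1 CPM. Apart from NEJ723, and from NEJ654 against NEJ634, neighbours in this order overlap. The place of NEJ723 is not firm, since its 85 UMIs of Cdkn1c were in 8 of 33 cells and the level was 134 to 164 CPM under 4 alternatives. With finer clusters (resolution 2), Mest and Plagl1 in NEJ634 were at 254 and 22.1 CPM. The order was not that of Mest.

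Plagl1 was at 57.3 CPM (39.7 to 80.0) in NEJ634, 33.0 CPM (20.1 to 50.9) in NEJ687, 99.96 CPM (68.8 to 140) in NEJ723, 33.7 CPM (29.1 to 38.8) in NEJ638, 13.8 CPM (10.8 to 17.4) in NEJ654 and 16.5 CPM (13.6 to 19.9) in NEJ677, past the fold in all 6. Meg3, Rian and Dlk1 had 0 to 3 UMIs in each pool. Peg3 was past the fold in NEJ638, NEJ654 and NEJ677, at 18.8, 7.01 and 5.56 CPM, and not in the other 3 libraries, at 9.89 to 21.2 CPM. Against the ambient profile Peg3 passed in NEJ638 and NEJ677. Past the fold were 2 of 6 genes in NEJ634, 4 of 6 in NEJ638, 4 of 4 in NEJ654, 4 of 4 in NEJ677, 5 of 6 in NEJ687 and 3 of 8 in NEJ723. Of all genes it was 20.2%, 31.7%, 28.8%, 29.0%, 21.7% and 18.9%. Of the 5 in NEJ687, Igf2 (2.68-fold), H19 (2.26-fold) and Cdkn1c did not pass against the ambient profile. The pools held 1823 to 2232 cells in NEJ638, NEJ654 and NEJ677 and 33 to 85 in the others.

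**Figure D4:**
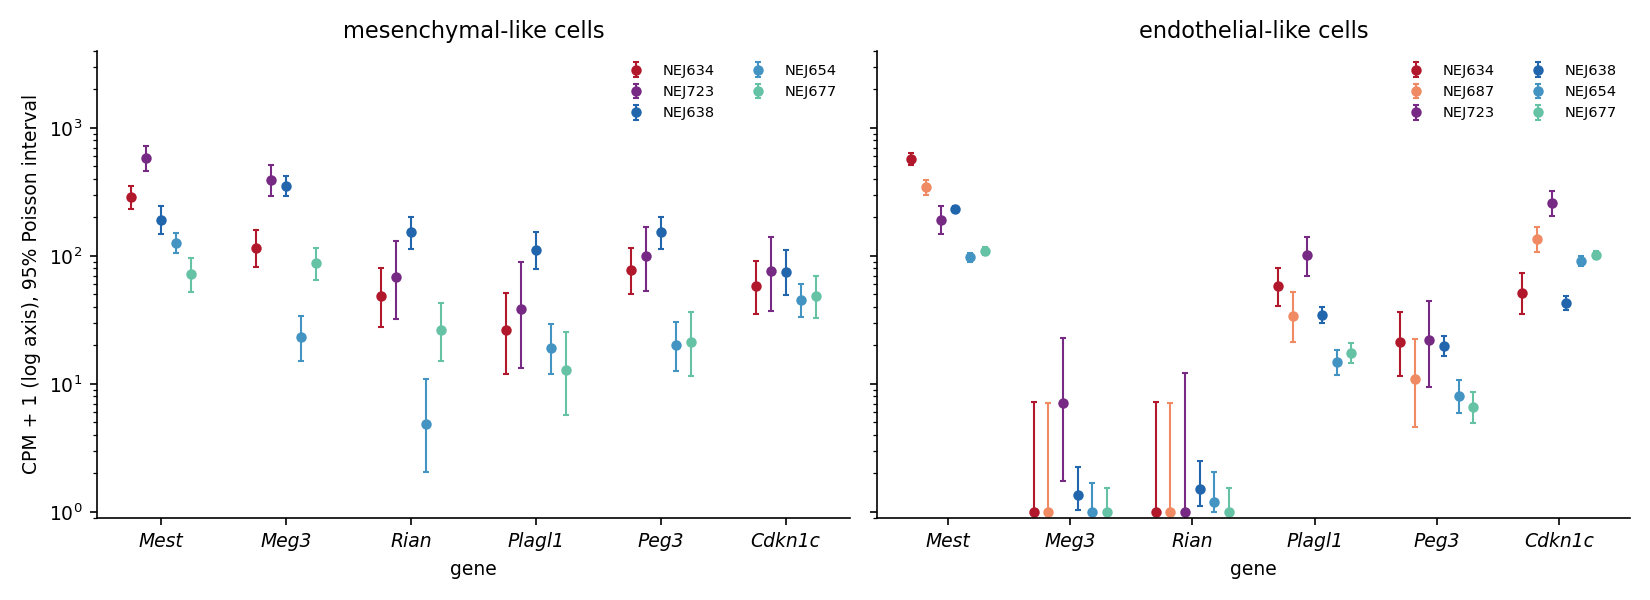
Levels (CPM + 1, log axis) of Mest, Meg3, Rian, Plagl1, Peg3 and Cdkn1c in mesenchymal-like cells (left) and endothelial-like cells (right), with a point per library and exact 95% Poisson intervals. Meg3 and Rian are seen in mesenchymal-like cells and are near 0 in endothelial-like cells, and Mest is high in both.

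To compare shares of cells at equal depth, each cell was thinned to 500 UMIs, and no cell was shallower. Of hepatocyte-lineage-like cells of NEJ634, 88.3% held H19 and 65.8% held Igf2, against 23.2% and 11.1% of lymphoid cells. In NEJ687 these were 90.5% and 54.6%, against 9.35% and 1.42%. Of the NEJ723 epithelial progenitor-like cells 2.06% held H19, 52.7% Igf2 and 23.9% Peg3, against 0.495%, 8.41% and 0.692% of lymphoid cells. Mest was held by 10.2% of endothelial-like cells in NEJ638 and 20.6% in NEJ634, against 0.264% and 1.05%. Not thinned, H19 was in 99.85% and Igf2 in 97.1% of the NEJ634 cells, at a median of 2966 UMIs, against 82.1% and 54.2% of lymphoid cells at 4001 UMIs. In NEJ687 they were in 95.4% and 85.1%, and in NEJ723 H19 was in 16.9%, Igf2 in 99.6% and Peg3 in 95.1% of cells, at a median of 41067 UMIs. Mest was in 39.1% of endothelial-like cells of NEJ638 and 69.8% of those of NEJ634.

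Which genes had the most similar pattern was read over 77 pools of a library and a class. Pearson's r of log2(CPM + 10) is a description, since pools of a library share their free RNA. Among 7384 genes, Afp was nearest to Igf2 (r = 0.966), followed by S100g and Bex2. Afp was also nearest to H19 (r = 0.799), followed by Igf2 (r = 0.791) and Igfbp1. Meg3 and Rian were nearest to each other (r = 0.954), and the next for both were Gpc3 and Loxl1. Cdkn1c was nearest to Grb10 (r = 0.862), itself imprinted, and then Calml4 and Adarb1. Mest was nearest to Lrrc32 (r = 0.904), Armcx1 and Ednrb, and Plagl1 to Mcam (r = 0.860), Mest and Ednrb. Peg3 was nearest to Fkbp11 (r = 0.859), Lgals2 and Krt8. Dlk1 and Phlda2 reached 50 CPM in 1 pool each and were not compared.

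A list of 44 further imprinted genes, of which 43 were measured, placed the set in context. In hepatocyte-lineage-like cells 7 of 32 compared were past the fold in NEJ634, 11 of 24 in NEJ687, and 9 of 20, 9 of 21 and 7 of 21 in NEJ638, NEJ654 and NEJ677. Of all genes it was 18.2%, 25.6%, 26.8%, 23.8% and 23.6% in that order. Grb10, a brake on growth factor receptors, was at 211 CPM in NEJ634 and 193 CPM in NEJ687, and at 24.4 and 6.53 CPM in NEJ638 and NEJ654. Peg10, derived from a retroelement, was at 67.0 and 127 CPM in NEJ634 and NEJ687, and Sfmbt2, a Polycomb group gene, at 46.4 and 62.2 CPM. Slc22a18 ran opposite, at 15.8 and 22.4 CPM in NEJ634 and NEJ687 and 74.4, 76.2 and 31.9 CPM in NEJ638, NEJ654 and NEJ677. Ddc was at 42.7 to 73.4 CPM and Commd1 at 108 to 166 CPM, past the fold in all 5 libraries. In mesenchymal-like cells Ndn was at 25.4 to 50.5 CPM in NEJ638, NEJ654 and NEJ677, with no UMI in lymphoid cells, and Sgce at 31.9 to 71.4 CPM in the 4 libraries compared. The membrane protein gene Cd81 was past the fold in all 5 mesenchymal-like pools, at 377 to 703 CPM, and Tssc4 in 2 of them.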

How the data were processed

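The deposited values are raw UMI counts for every gene and every barcode seen. The authors neither normalized them nor filtered cells before deposit. The authors used Cell Ranger 6.0 with introns counted, per the submitters' processing notes and the methods, whereas the file headers name Cell Ranger 4. The genome build is not given in the sources used here, so coordinates are those of GENCODE M21 or RefSeq, both on GRCm38.

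For cell calling, a first limit was set at the 99th percentile, divided by 10, among the 3000 largest barcodes. Barcodes of at least 500 UMIs that differed from the ambient profile (barcodes ranked 45000 to 90000, at most 20000 tested, 10000 Monte Carlo draws, adjusted p of 0.01) were added. NEJ634, NEJ709 and NEJ723 had more candidates than this maximum. Of 87934 called barcodes, 81548 were kept, which had over 500 UMIs and a mitochondrial share of 20% or less. Doublets were removed by score at 0.8% per 1000 cells, and barcodes called in several libraries were left out. The imprinted genes were left out of clustering (2000 variable genes, 40 components, 15 neighbours, Leiden resolution 1). Clusters were named (11 of 37 stayed unnamed) from 133 markers of 17 classes by a mean log2 fold of 1.5, a lead of 0.5 and 3 markers up 2-fold at 10 CPM.

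A level is the UMIs of a gene over a pool of 20 cells or more, per 1000000 UMIs of that pool. The total UMIs per library were 40214395 to 132485391. The interval of a level follows from its UMIs alone and does not cover how they are spread over cells. Ambient shares came from markers a class should lack. For these shares and for comparisons with the ambient profile, low-UMI barcodes called as cells in another library were left out. They numbered 898 to 13776 of 45000 per library. With them kept, Igf2 and H19 in the NEJ638 profile were at 65.9 and 163 CPM instead of 4.01 and 32.1 CPM. A count of 0 is given with the level of 3 counts. The labels gave 0 groups, so all 7 samples were unassigned and no test between groups was made. Named genes were the 10 imprinted genes, up to 10 other imprinted genes past the fold in at least 2 libraries, and the 3 genes most like each member. The imprinted genes and the lists were chosen with earlier results of these data known. The limit on H19, the stretch of chromosome 7 shown and 2 naming rules were chosen after seeing the data: a correlation of 0.94 or more with the ambient profile, and more markers of another class among the leading genes, left a cluster unnamed. Alternatives are given in the closing section.

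The steps were tested on simulated data. Software was scanpy 1.11.5, igraph 0.11.9, scikit-learn 1.9.0, matplotlib 3.10.9, pandas 2.3.3, numba 0.67.0, scipy 1.17.1, scikit-image 0.26.0 and numpy 2.4.6 on Python 3.11.15.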

Additional observations from a re-analysis of the deposited data

Results flagged for a closer look

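Igf2, H19 or both were above the level of the analysed cells, with that level outside the interval, in barcodes left out of NEJ638, NEJ654 and NEJ677 because they were called as cells in several libraries. In NEJ654 and NEJ677, Dlk1, Meg3, Rian, Peg3 and Phlda2 were higher there too, such as Dlk1 at 23.3 against 0.0979 CPM in NEJ654. Cdkn1c was at 67.3 against 33.6 CPM in NEJ654 and at 37.4 (27.2 to 50.2) against 34.1 CPM in NEJ677. Mest was lower, at 17.95 against 39.4 CPM in NEJ654 and 11.9 against 34.1 CPM in NEJ677. Plagl1 was lower as well, at 3.59 (0.978 to 9.19) against 5.53 CPM and 0.850 against 4.99 CPM. In NEJ638, 142 such barcodes held H19 at 336.4 CPM (282.6 to 397.4), against 33.7 CPM over the analysed cells. In NEJ654, 328 held Igf2 at 321.4 CPM (288.9 to 356.4) and H19 at 1184 CPM (1121 to 1250), where the analysed cells had 0.930 and 0.588 CPM. In NEJ677, 310 held Igf2 at 262.5 CPM (234.1 to 293.5) and H19 at 1002 CPM (945 to 1061), where the analysed cells had 0.263 and 0.225 CPM. NEJ654 shared 191 kept barcodes with NEJ677 and 115 with NEJ687, and NEJ677 shared 105 with NEJ687. In the 286 barcodes left out of NEJ723, Igf2 was at 952 CPM and Phlda2 at 2.63 CPM, above the 376 and 1.53 CPM of the analysed cells. H19 was at 9.13 CPM and Cdkn1c at 0.619 CPM, below their 40.4 and 3.55 CPM. In NEJ709 the barcodes left out held Igf2 at 861 against 201 CPM and H19 at 1413 against 443 CPM, and in NEJ687 Igf2 at 241 against 218 CPM and H19 at 1539 against 791 CPM. In NEJ634 Igf2 was at 1311 against 1370 CPM and H19 at 3028 against 3059 CPM. No difference between these barcodes and the analysed cells was tested, and neither was the library from which their RNA came.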

How the results depend on the processing

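For 113 results 950 values were computed, those reported included. Levels of a gene in a class were recomputed only where the gene was past the fold over lymphoid cells. The low levels of Igf2 and H19 in hepatocyte-lineage-like cells of NEJ654 and NEJ677 were thus not covered. Levels, shares and counts have no sign, so none could reverse. H19 in epithelial progenitor-like cells was higher in NEJ634 than in NEJ723 as reported and lower after ambient subtraction (85.2 and 149.6 CPM), and H19 in mesenchymal-like cells of NEJ634 went to 0. With the 99th percentile rule alone, 19 pairs of a gene and a library were past the fold in mesenchymal-like cells instead of 29, and the Igf2 share of Igf2 and H19 UMIs in NEJ634 was 30.55%. With each library clustered on its own, epithelial progenitor-like cells were named in 1 library, with 5 pairs instead of 17, and the share in NEJ634 was 30.50%. That share was 31.46% without doublet removal and 31.57% after ambient subtraction. In NEJ687 it was 21.08% with shared barcodes kept, 20.74% as a mean over cells and 21.16% at a mitochondrial limit of 10%. In NEJ723 it was 93.21%, 92.08% and 90.62% under these 3. With each library clustered on its own, no cells of NEJ723 were named epithelial progenitor-like, so its split by H19 could not be repeated there. Where the class was kept, the cells of NEJ723 without H19 numbered 174 to 239 and those with 10 or more H19 UMIs 14 to 16. Single levels left their reported interval in 40 of 84 as a mean over cells and 24 of 84 after ambient subtraction. They did so in 22 of 70 with each library clustered on its own. Single levels moved by over 1.5 times in 12 of 70 with each library clustered on its own (0.273 to 3.13 times the reported level), 8 of 84 as a mean over cells (0.154 to 2.67), 7 of 84 with shared barcodes kept (0.339 to 3.46), 7 of 84 after ambient subtraction (up to 2.19), 5 of 84 without doublet removal (0.548 to 2.58), 5 of 84 at resolution 2 (0.386 to 1.67) and 1 of 70 with the 99th percentile rule alone. Most were in pools of NEJ634. In its epithelial progenitor-like cells Dlk1 was at 11.2 to 101.9 CPM, Meg3 at 26.3 to 109.8 CPM, Rian at 11.2 to 44.8 CPM, Phlda2 at 24.6 to 69.5 CPM, Igf2 at up to 1227 CPM and H19 at up to 2938 CPM, and Peg3 was at 613 CPM after ambient subtraction. In its mesenchymal-like cells H19 was at up to 2734 CPM, Meg3 at 59.9 CPM, Rian at 24.2 CPM and Mest at 142.6 CPM with each library clustered on its own, and Peg3 was at up to 121.5 CPM without doublet removal. As a mean over cells, Peg3 in mesenchymal-like cells was at 262 CPM in NEJ723 and 31.4 CPM in NEJ654, Cdkn1c in those of NEJ723 at 41.3 CPM, Dlk1 in hepatocyte-lineage-like cells of NEJ687 at 26.9 CPM and Plagl1 in endothelial-like cells of NEJ687 at 19.5 CPM. Plagl1 in endothelial-like cells of NEJ723 was at 60.2 CPM with each library clustered on its own. Mest in mesenchymal-like cells of NEJ634 was at 44.3 CPM as a mean over cells, Mest and Plagl1 in endothelial-like cells of NEJ634 at 254 and 22.1 CPM at resolution 2, and Cdkn1c in endothelial-like cells of NEJ723 at 134 to 164 CPM under 4 alternatives. The cause was not tested. Pools of 22 to 267 cells limit these levels. No paired analysis was possible because the labels give no groups and no replicate numbers.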

Other observations

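In megakaryocyte-like cells, which make platelets, Mest was at 313 CPM in NEJ634 (50 cells), 28.4 CPM in NEJ723 (111 cells) and had no UMI in NEJ687 (35 cells), which allows up to 64.9 CPM. Lymphoid cells held 6.29, 1.61 and 4.07 CPM of Mest in these libraries and the free RNA 28.1, 5.75 and 2.23 CPM. Igf2 was at 630 and 586 CPM in NEJ634 and NEJ723, below the free RNA at 1144 and 1270 CPM. Macrophage-like cells held Meg3 at 23.5 CPM and Rian at 12.2 CPM in NEJ634 (2487 cells) and 26.6 and 43.6 CPM in NEJ709 (78 cells). The free RNA held 12.1 and 8.94 CPM in NEJ634 and 9.84 and 1.64 CPM in NEJ709, and lymphoid cells 1.05 and 0 CPM in NEJ634 and 3.30 CPM of each in NEJ709. In the other 5 libraries Meg3 was at 0 to 11.3 CPM and Rian at 0 to 2.997 CPM. These values were looked up after the results were seen, and no test was made.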
